A study of Mus musculus with 12 samples.

Results

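The 38 genes described here encode lysosomal enzymes, lysosomal membrane proteins, subunits of the lysosomal proton pump, the transcription factors TFEB and TFE3 and proteins of autophagy. They were listed by name, and a probe set was taken for a gene when the array's annotation named that gene and no other. All 38 of 38 were found, with 92 probe sets, and 14316 genes could be tested in all. Messenger RNA was profiled with 12 arrays in whole left kidneys of male mice bought at 8 weeks of age, 1 array per mouse and 3 arrays per group. The 4 groups were TLR4 null ischemic and TLR4 null sham kidneys (strain C57BL/10ScNJ) and WT ischemic and WT sham kidneys (strain C57BL/10). TLR4, an innate immune receptor, is lost in all cells of the C57BL/10ScNJ substrain, so the loss of Tlr4 and any other difference between the substrains cannot be told apart. The right kidney was removed from all 12 mice, sham mice included. In ischemic mice a clip closed the vessels of the left kidney for 23 min, while in sham mice the clip was laid under the vessels without closing them. Kidneys were taken at 4 h of reperfusion.

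Lysosomes are acidic organelles in which proteases, glycosidases and lipid-handling proteins break down material delivered by endocytosis and by autophagy. In autophagy, a kinase complex that holds ULK1 and a lipid kinase complex that holds beclin 1 start a membrane, WIPI proteins and the ATG12-ATG5-ATG16L1 complex attach ATG8 proteins such as LC3B to it, and the closed autophagosome fuses with a lysosome. Cargo receptors such as p62, the product of Sqstm1, bind ubiquitinated cargo and LC3 and are themselves degraded with it. TFEB and TFE3 bind an E-box element in promoters of many lysosomal genes and are held in the cytoplasm by mTORC1 when nutrients are plentiful. Proximal tubule cells, the bulk of the kidney cortex, take up filtered protein and digest it in lysosomes. Messenger RNA levels do not measure autophagic flux or enzyme activity.

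The promoters show which of these genes carry the letters of that element. RefSeq's mouse table (build GRCm38.p6) held promoters, 250 bases before to 50 bases after a transcript start, for 32 of the 38 genes. The E-box CACGTG stood in promoters of 12 of the 32 genes (37.5%), against 2187 of 27025 genes in the table (8.09%). Both strands were searched. GTCACGTG, which holds the E-box with its flank in the element bound by TFEB, stood in 8 (25%), against 2.55% of all genes in the table. TCACGTGA, the inner letters of that element, also holds the E-box and reads the same on both strands. It stood in 6 of the 32 genes (18.8%), against 304 of all genes (1.12%). The stretches around it are given for those 6 genes, 5′ to 3′ on the gene's strand, with TCACGTGA in capitals.
Gla: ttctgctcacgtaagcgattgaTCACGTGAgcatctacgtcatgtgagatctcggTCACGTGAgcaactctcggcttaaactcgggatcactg
Ctsd: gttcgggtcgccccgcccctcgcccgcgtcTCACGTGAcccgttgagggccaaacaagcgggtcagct
Ctsa: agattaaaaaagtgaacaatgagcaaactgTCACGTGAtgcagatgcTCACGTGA
Mcoln1: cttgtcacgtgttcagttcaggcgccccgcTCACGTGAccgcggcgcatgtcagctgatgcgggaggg
Atp6v1a: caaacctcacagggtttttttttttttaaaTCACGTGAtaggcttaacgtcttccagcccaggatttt
Atp6v0d1: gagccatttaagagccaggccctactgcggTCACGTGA
The Gla stretch lies at chrX:134601163-134601255 on the minus strand and the Ctsd stretch at chr7:142387889-142387956 on the minus strand. The Ctsa stretch lies at chr2:164833730-164833784 on the plus strand and the Mcoln1 stretch at chr8:3500443-3500510 on the plus strand. The Atp6v1a stretch lies at chr16:44139354-44139421 and the Atp6v0d1 stretch at chr8:105566061-105566098, both on the minus strand. For Ctsa and Atp6v1a the transcript start used lies inside the annotated gene and not at the gene's own start. Of these 6 genes, Gla and Ctsd rose in ischemic kidneys, Ctsa, Mcoln1 and Atp6v1a fell, and Atp6v0d1 did not pass the test, as given below. Of the 221 tested genes with TCACGTGA in a promoter of the table, 15.4% rose and 24.4% fell, with a median log2 difference of -0.072. Of all genes tested, 13.7% rose and 19.4% fell, with a median of -0.084. The letters in a promoter are a description and do not show binding. Many lysosomal genes are known to carry this element, so its larger share in this list is no result of these data.

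Ischemic kidneys differed from sham kidneys in 18 of the 38 genes over both genotypes, 9 higher and 9 lower. The rises were led by Sqstm1, Gla and Npc1, each at least 1.5-fold, and the 9 falls were all smaller than 1.5-fold. The share of all genes called in the same comparison was 13.7% higher and 19.4% lower. The rises also included Neu1, Atg12, Tfe3, Ctsd, Ctsb and Ctsl, and the falls were those of Wipi1, Mcoln1, Glb1, Atp6v1a, Gusb, Scarb2, Tpp1, Ctsa and Becn1. The median log2 difference of the 38 genes was -0.053, beside -0.084 over all genes.

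Values are microarray signals on a linear scale, and differences are of log2(signal + 15), ischemic minus sham, which understates the change of dim genes. A gene was called, and is said to have risen or fallen, when limma's adjusted p, by Benjamini and Hochberg over all 14316 genes, was under 0.05. Each gene is represented by its probe set with the highest mean, and signals of different genes are not compared, since probes bind with different strength. Arrays of a group are biological replicates by their labels, and 3 per group limit the precision of every value. The median signal of an array was 61.2 to 77.4, and arrays of a group correlated at r = 0.963 to 0.979 across genes. The Tlr4 probe set that differed most had signals of 0.901 to 3.38 in TLR4 null kidneys and 65.6 to 120.4 in WT kidneys. All 12 listed proximal tubule markers passed the filter on low signals. Fat markers varied among arrays, with summed signals of 240.7 to 3494 over 4 genes, and with their mean as a covariate 18 of the 38 genes were again called over both genotypes. In whole kidneys, fewer cells of a type and less RNA per cell cannot be told apart.

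Within each genotype, which has 3 arrays against 3, fewer genes passed. In TLR4 null kidneys 4 rose (Sqstm1, Npc1, Neu1 and Tfe3) and 5 fell (Wipi1, Glb1, Mcoln1, Becn1 and Atp6v1a), while 9.86% of all genes were called higher and 11.7% lower. In WT kidneys 6 rose (Gla, Sqstm1, Npc1, Neu1, Atg12 and Ctsd) and 2 fell (Scarb2 and Atp6v1a), while 9.18% of all genes were called higher and 10.5% lower. Some calls within a genotype were lost when a single array was left out. In some of these fits that array belonged to the other genotype, which left the difference itself unchanged. In TLR4 null mice Glb1 lost its call without ischemic replicate 1 or sham replicate 2 (adjusted p of 0.052 and 0.0549), and Neu1 without sham replicate 1 or 3 (0.0717 and 0.081). Atp6v1a lost it there without ischemic replicate 1 or 2 or sham replicate 2 (0.0568 to 0.0879), and Tfe3 without ischemic replicate 1 or 2 or sham replicate 2 or 3 (0.0551 to 0.102). Mcoln1 kept its TLR4 null call without 4 of the 12 arrays (adjusted p up to 0.137), and in WT mice Scarb2 kept it without 5 of 12 (up to 0.121) and Atp6v1a without 4 of 12 (up to 0.185). The 23.7% of the 38 genes called in TLR4 null kidneys and the 21.1% called in WT kidneys were close to the 21.6% and 19.7% of all genes called in those comparisons. The direction of the response was the same in both genotypes for 34 of the 38 genes (89.5%), beside 74.5% of all genes. Across the 38 genes the TLR4 null and the WT differences, which share no arrays, correlated at r = 0.799, beside 0.727 across all genes, where genes are not independent replicates.

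**Figure D1:**
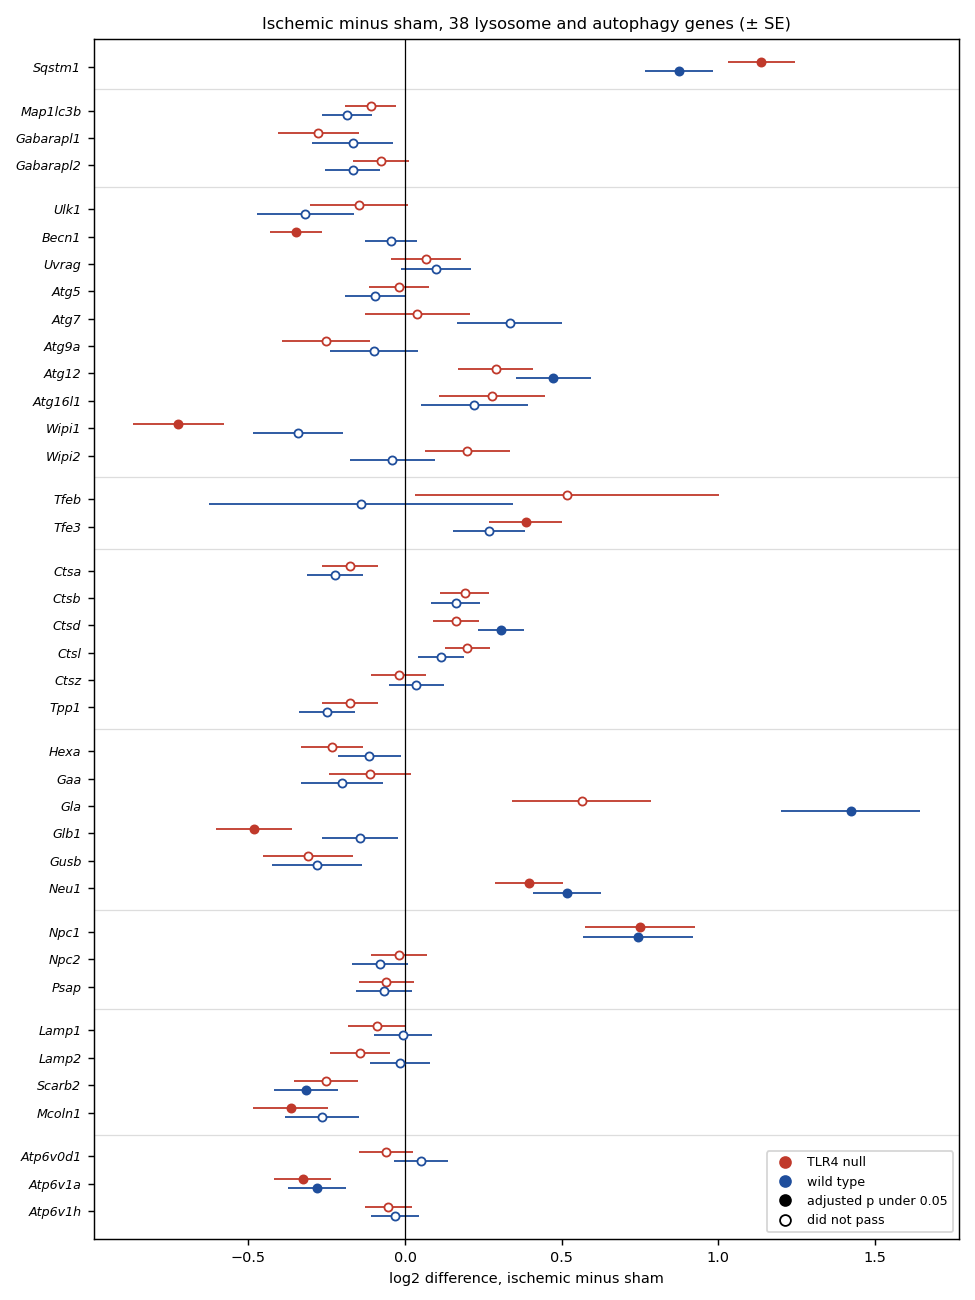
Log2 difference of ischemic minus sham kidneys (horizontal axis) for the 38 genes, grouped by role, in TLR4 null mice (red, upper point of each pair) and WT mice (blue, lower point). Bars are standard errors and filled points passed an adjusted p of 0.05. Sqstm1 lies far to the right in both genotypes, Gla farthest in WT, and Wipi1 farthest to the left in TLR4 null mice.

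Sqstm1 was the clearest rise. Sqstm1 gave signals of 10512, 11623 and 8755 in TLR4 null ischemic kidneys, against 4505, 4938 and 4483 in TLR4 null sham kidneys. In WT mice, Sqstm1 gave 9638, 8005 and 7985 in ischemic kidneys, against 4476, 4354 and 5106 in sham kidneys. Every ischemic kidney lay above every sham kidney. The log2 difference over both genotypes was 1.01 ± 0.076 (SE), a 2.01-fold rise (limma adjusted p = 1.12e-07). It was 1.14 ± 0.11 in TLR4 null mice (adjusted p = 3.29e-06) and 0.87 ± 0.11 in WT mice (adjusted p = 4.08e-05). A dimmer Sqstm1 probe set rose as well, by 0.81 ± 0.15 (adjusted p = 0.000822 in a fit of all probe sets).

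None of the ATG8 proteins passed with the probe set that stood for the gene. Map1lc3b, which encodes the autophagosome marker LC3B, differed by -0.15 ± 0.056 (adjusted p = 0.0589), with ischemic signals of 3055 to 3624 over both genotypes and sham signals of 3516 to 3943. Its other 2 probe sets past the filter fell, by 0.30 ± 0.066 on the log2 scale (adjusted p = 0.00308) and by 0.27 ± 0.065 (adjusted p = 0.00577). Gabarapl1 differed by -0.22 (adjusted p = 0.0756), and its other probe set fell by 0.21 ± 0.072 (adjusted p = 0.044). Gabarapl2 differed by -0.12 (adjusted p = 0.155). Each probe set given here for Map1lc3b, Gabarapl1 and Gabarapl2 had a negative difference. A second, dim Gabarapl2 probe set, with signals of 62.6 to 115, is not among them. In the further list of ATG8 conjugation and other ATG8 proteins, 3 of 9 genes had a positive difference.

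Of the 10 genes of the autophagy machinery, Atg12 rose, Wipi1 and Becn1 fell, and 7 did not pass. Of all genes tested, 13.7% rose and 19.4% fell in the same comparison. Atg12 encodes the ubiquitin-like protein that is joined to ATG5. Atg12 gave 442, 366 and 380.5 in TLR4 null ischemic kidneys, against 288, 362 and 316 in TLR4 null sham kidneys. In WT mice, Atg12 gave 391, 454 and 455 in ischemic kidneys, against 295, 292 and 335 in sham kidneys. All 6 ischemic values exceeded all 6 sham values, by a narrow margin. The difference was 0.38 ± 0.085 (adjusted p = 0.00266) over both genotypes, 0.29 ± 0.12 in TLR4 null mice (adjusted p = 0.103) and 0.47 ± 0.12 in WT mice (adjusted p = 0.0112).

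WIPI1 binds the lipid made by the beclin 1 complex on forming autophagosomes. Wipi1 gave 310.3, 297 and 368 in TLR4 null ischemic kidneys, against 552, 448 and 651 in TLR4 null sham kidneys. In WT mice, Wipi1 gave 345, 476 and 387 in ischemic kidneys, against 539, 487 and 504 in sham kidneys. Ischemic and sham kidneys did not overlap within either genotype. Wipi1 fell by 0.53 ± 0.10 on the log2 scale over both genotypes (adjusted p = 0.000857) and by 0.72 ± 0.14 in TLR4 null mice (adjusted p = 0.00212). In WT mice the difference was -0.34 ± 0.14 (adjusted p = 0.116). Of 6 Wipi1 probe sets, 4 fell, by 0.49 to 0.88 on the log2 scale, another differed by -0.30 without passing, and another was flat at 0.07 ± 0.14 (adjusted p = 0.754).

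Beclin 1, the product of Becn1, is the scaffold of the lipid kinase complex. Becn1 gave 1903, 2083 and 1923 in TLR4 null ischemic kidneys, against 2575, 2599.7 and 2356 in TLR4 null sham kidneys. In WT mice, Becn1 gave 1959, 2262 and 2293 in ischemic kidneys, against 2188, 2342 and 2171 in sham kidneys. The groups stood apart in TLR4 null mice and overlapped in WT mice. Becn1 fell by 0.20 ± 0.059 on the log2 scale over both genotypes (adjusted p = 0.0182) and by 0.35 ± 0.083 in TLR4 null mice (adjusted p = 0.00713), against a WT difference of -0.04 ± 0.083 (adjusted p = 0.768). Without WT ischemic replicate 1 the call over both genotypes was lost (adjusted p = 0.0517). None of the other 4 Becn1 probe sets passed, including one with a mean signal of 1357 that differed by -0.09 (adjusted p = 0.394).

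The remaining machinery genes did not pass over both genotypes. Ulk1, which encodes the starting kinase, differed by -0.23 (adjusted p = 0.121), and Atg9a, which encodes a membrane protein of donor vesicles, by -0.18. Atg16l1 differed by 0.25 (adjusted p = 0.129), Atg7, whose product activates ATG12 and ATG8 proteins, by 0.19, and Atg5 by -0.06. Uvrag and Wipi2 both differed by 0.08, and a second Wipi2 probe set rose by 0.40 ± 0.14 (adjusted p = 0.0448).

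Tfe3 rose. Tfe3 gave 366, 383 and 371 in TLR4 null ischemic kidneys, against 302, 256 and 290.3 in TLR4 null sham kidneys. In WT mice, Tfe3 gave 417, 339.8 and 387 in ischemic kidneys, against 297, 294 and 350.2 in sham kidneys. A single WT sham kidney overlapped the ischemic range. The difference was 0.33 ± 0.082 over both genotypes (adjusted p = 0.00589), 0.39 ± 0.12 in TLR4 null mice (adjusted p = 0.0263) and 0.27 ± 0.12 in WT mice (adjusted p = 0.121).
Tfeb was dim and uneven, with 97.96, 66.9 and 49.1 in TLR4 null ischemic kidneys, against 33.6, 22.8 and 95.03 in TLR4 null sham kidneys. In WT mice, Tfeb gave 82.4, 151 and 42.3 in ischemic kidneys, against 149, 130.4 and 37.0 in sham kidneys. All groups overlapped, and the difference of 0.19 ± 0.34 (adjusted p = 0.72) had a standard error too wide to place it.

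**Figure D2:**
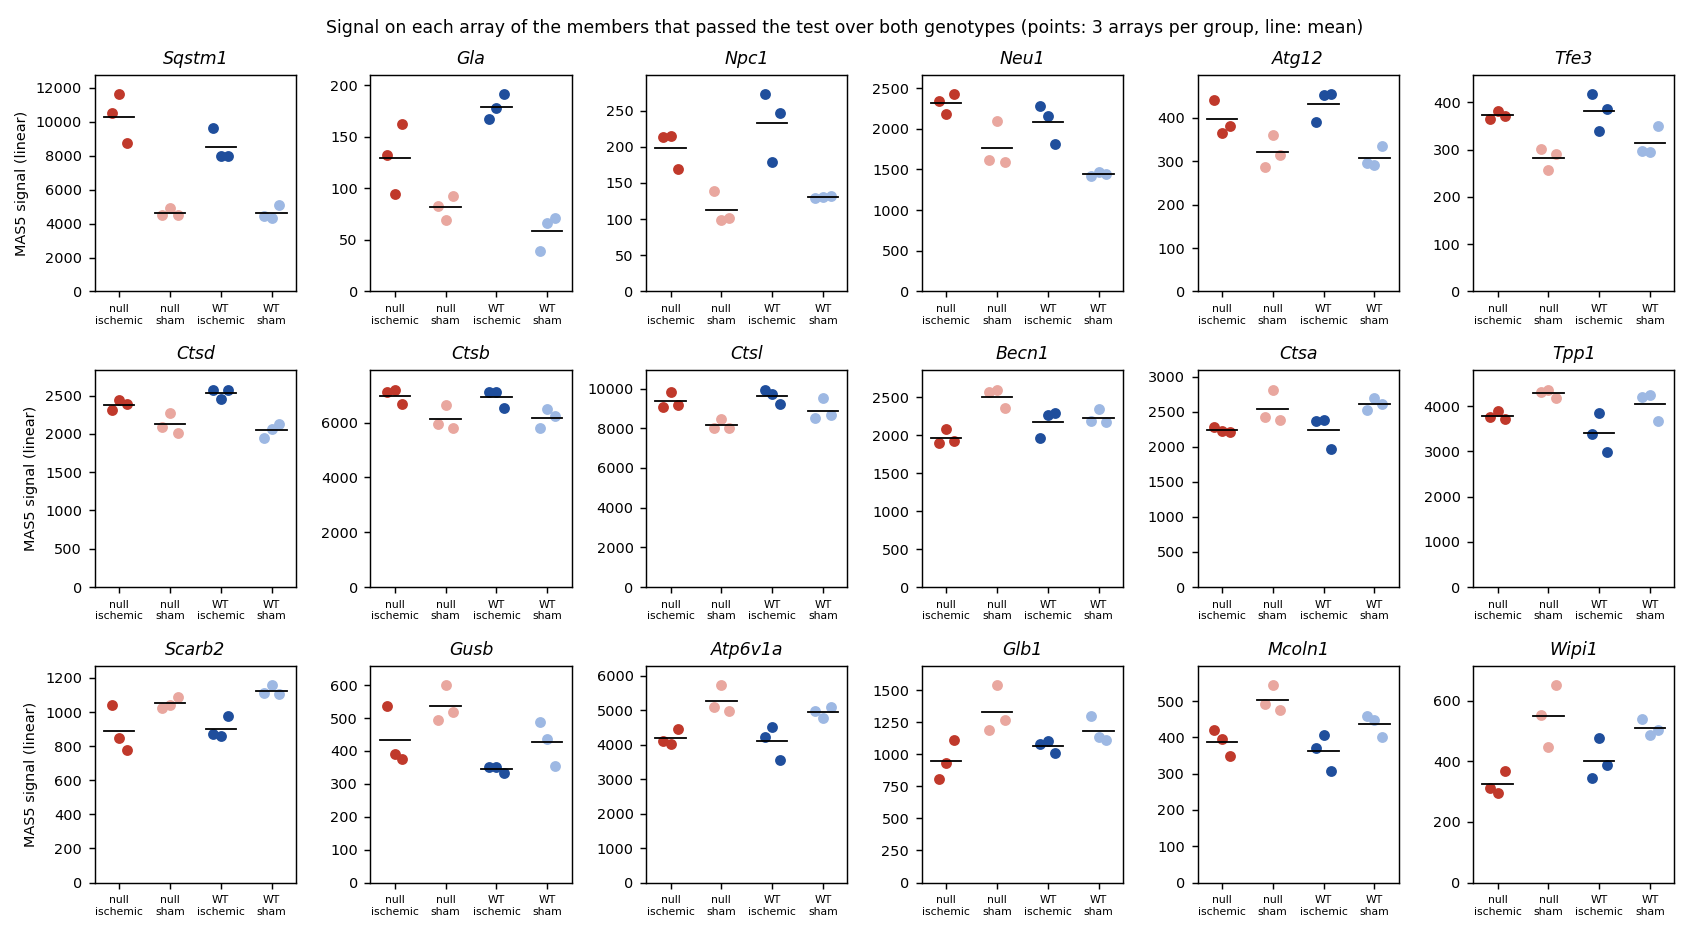
MAS5 signal (linear, from 0) on each array for the 18 genes called over both genotypes, ordered from the largest rise to the largest fall. Points are arrays, 3 per group, and lines are means, with ischemic left of sham kidneys in each genotype. Sqstm1, Gla and Npc1 separate widely, while the cathepsins shift by a small part of their level.

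Among 6 lysosomal proteases, Ctsd, Ctsb and Ctsl rose, Ctsa and Tpp1 fell, and Ctsz did not pass. These counts stand beside 13.7% of all genes called higher and 19.4% lower. Cathepsin D is the main aspartic protease of lysosomes. Ctsd gave 2311, 2446 and 2385 in TLR4 null ischemic kidneys, against 2096, 2274 and 2009 in TLR4 null sham kidneys. In WT mice, Ctsd gave 2571, 2461 and 2576 in ischemic kidneys, against 1946, 2067 and 2131 in sham kidneys. The ischemic and sham values did not overlap. Ctsd rose by 0.24 ± 0.053 over both genotypes (adjusted p = 0.00278) and by 0.31 ± 0.075 in WT mice (adjusted p = 0.00844), and the TLR4 null difference was 0.16 ± 0.075 (adjusted p = 0.139).

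Ctsb and Ctsl encode the cysteine proteases cathepsin B and cathepsin L. Ctsb gave 7104, 7201 and 6667 in TLR4 null ischemic kidneys, against 5949, 6650.5 and 5791 in TLR4 null sham kidneys. In WT mice, Ctsb gave 7124, 7108 and 6537 in ischemic kidneys, against 5824, 6504 and 6227 in sham kidneys. The groups stood apart within each genotype, and the rise over both was 0.18 ± 0.055 (adjusted p = 0.0225). Ctsl gave 9081, 9852 and 9184 in TLR4 null ischemic kidneys, against 8026, 8465 and 7992 in TLR4 null sham kidneys. In WT mice, Ctsl gave 9942, 9704 and 9219 in ischemic kidneys, against 8502, 9531 and 8646 in sham kidneys. WT groups overlapped for Ctsl, and the rise over both genotypes was 0.16 ± 0.051 (adjusted p = 0.0288). Neither gene passed in a single genotype. Ctsb lost its call without TLR4 null sham replicate 1 or 3, WT ischemic replicate 1 or WT sham replicate 1 (adjusted p of 0.0528 to 0.0628). Ctsl kept its call only without TLR4 null ischemic replicate 1 or 3, TLR4 null sham replicate 2, WT ischemic replicate 3 or WT sham replicate 2, and without any other array its adjusted p was 0.0514 to 0.0706. A second bright Ctsb probe set rose by 0.23 ± 0.070 (adjusted p = 0.0225). A dim one, at a mean signal of 112, rose by 1.43 ± 0.24 (adjusted p = 0.000408), and 2 others did not pass.

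Cathepsin A, the product of Ctsa, protects beta-galactosidase and neuraminidase in a complex. Ctsa gave 2289, 2233 and 2211 in TLR4 null ischemic kidneys, against 2428, 2816 and 2385 in TLR4 null sham kidneys. In WT mice, Ctsa gave 2376, 2378 and 1971 in ischemic kidneys, against 2530.0, 2695 and 2609 in sham kidneys. No ischemic value reached a sham value, and Ctsa fell by 0.20 ± 0.063 on the log2 scale over both genotypes (adjusted p = 0.0244). The call was lost without TLR4 null sham replicate 2, WT ischemic replicate 3 or WT sham replicate 2 (adjusted p of 0.0577 to 0.0654). Tpp1 encodes a peptidase that trims tripeptides from protein ends. Tpp1 gave 3767, 3884 and 3714 in TLR4 null ischemic kidneys, against 4306, 4361 and 4173 in TLR4 null sham kidneys. In WT mice, Tpp1 gave 3383, 3842 and 2989.9 in ischemic kidneys, against 4203, 4237 and 3672 in sham kidneys. Tpp1 overlapped in WT mice only, and it fell by 0.21 ± 0.064 on the log2 scale (adjusted p = 0.0185). A second Tpp1 probe set fell by 0.47 ± 0.060 (adjusted p = 2.92e-05).

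In the group of 6 genes that encode glycosidases or the sialidase, Gla and Neu1 rose and Glb1 and Gusb fell. Hexa and Gaa did not pass. Across all genes, 13.7% rose and 19.4% fell. Gla encodes alpha-galactosidase A, which cleaves terminal galactose from glycolipids. Gla gave 133, 94.1 and 163 in TLR4 null ischemic kidneys, against 82.5, 69.5 and 92.8 in TLR4 null sham kidneys. In WT mice, Gla gave 168, 178 and 191 in ischemic kidneys, against 39.1, 66.0 and 71.1 in sham kidneys. The ischemic range lay above the sham range, narrowly so in TLR4 null mice. Gla rose by 0.99 ± 0.16 over both genotypes (adjusted p = 0.000169) and by 1.42 ± 0.22 in WT mice (adjusted p = 0.000319), and the TLR4 null difference was 0.56 ± 0.22 (adjusted p = 0.0865). The signals are low, and the other Gla probe set past the filter, dimmer still, differed by 0.68 ± 0.43 (adjusted p = 0.276).

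Neu1 encodes neuraminidase 1, which removes sialic acid. Neu1 gave 2344, 2177 and 2424 in TLR4 null ischemic kidneys, against 1617, 2094 and 1597 in TLR4 null sham kidneys. In WT mice, Neu1 gave 2278, 2159 and 1815 in ischemic kidneys, against 1424, 1468 and 1444 in sham kidneys. The groups stood apart within each genotype. Neu1 rose by 0.46 ± 0.077 over both genotypes (adjusted p = 0.000293), by 0.39 ± 0.11 in TLR4 null mice (adjusted p = 0.0166) and by 0.52 ± 0.11 in WT mice (adjusted p = 0.00324). A second probe set rose by 0.32 ± 0.11 (adjusted p = 0.0468), a dim one differed by -0.30 (adjusted p = 0.304), and with the mean of the probe sets the gene's difference was 0.16 (adjusted p = 0.292).

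Glb1 encodes beta-galactosidase. Glb1 gave 804, 935 and 1112 in TLR4 null ischemic kidneys, against 1189, 1539 and 1268 in TLR4 null sham kidneys. In WT mice, Glb1 gave 1083, 1101 and 1013 in ischemic kidneys, against 1303, 1133 and 1108 in sham kidneys. Both genotypes separated, WT mice by a small gap. Glb1 fell by 0.31 ± 0.086 on the log2 scale over both genotypes (adjusted p = 0.0105) and by 0.48 ± 0.12 in TLR4 null mice (adjusted p = 0.00967), and the WT difference was -0.14 ± 0.12 (adjusted p = 0.462). Gusb, for beta-glucuronidase, gave 536, 389.9 and 376 in TLR4 null ischemic kidneys, against 494, 599.6 and 518 in TLR4 null sham kidneys. In WT mice, Gusb gave 352, 351 and 332 in ischemic kidneys, against 489, 435 and 354 in sham kidneys. TLR4 null groups overlapped, and the fall over both genotypes, -0.30 ± 0.10, was the weakest call among the 18 (adjusted p = 0.0357). It held only without TLR4 null ischemic replicate 1, TLR4 null sham replicate 1 or WT sham replicate 3, and without any other array the adjusted p was 0.0542 to 0.0972. A dimmer Gusb probe set differed by 0.23 (adjusted p = 0.285). Hexa, for the alpha chain of beta-hexosaminidase A, differed by -0.17 (adjusted p = 0.0753) and Gaa, for acid alpha-glucosidase, by -0.16.

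Of the lipid-handling genes, Npc1 rose. NPC1 is the membrane protein that moves cholesterol out of lysosomes. Npc1 gave 213, 215 and 169 in TLR4 null ischemic kidneys, against 139, 98.5 and 101 in TLR4 null sham kidneys. In WT mice, Npc1 gave 272, 179 and 246 in ischemic kidneys, against 129, 131 and 132 in sham kidneys. Every ischemic kidney exceeded every sham kidney. The rise was 0.75 ± 0.12 over both genotypes (adjusted p = 0.000268), 0.75 ± 0.18 in TLR4 null mice (adjusted p = 0.00642) and 0.74 ± 0.18 in WT mice (adjusted p = 0.00731). Npc2, whose product hands cholesterol to NPC1, differed by -0.05, and Psap, the precursor of the saposins, by -0.06.

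Of 4 membrane proteins of the lysosome 2 fell, Mcoln1 and Scarb2, beside 19.4% of all genes. Lamp1 and Lamp2 did not pass. Mcoln1 encodes a calcium channel of the lysosomal membrane. Mcoln1 gave 419, 396 and 349 in TLR4 null ischemic kidneys, against 492, 543 and 475 in TLR4 null sham kidneys. In WT mice, Mcoln1 gave 372, 407 and 307 in ischemic kidneys, against 459, 447 and 402 in sham kidneys. The WT groups overlapped by a single array. Mcoln1 fell by 0.31 ± 0.085 on the log2 scale over both genotypes (adjusted p = 0.00942) and by 0.36 ± 0.12 in TLR4 null mice (adjusted p = 0.041). Its other probe sets did not pass, and with probe sets of the suffix _x_at or _s_at left out the gene differed by -0.12 (adjusted p = 0.398). Scarb2 encodes LIMP-2, the receptor that carries beta-glucocerebrosidase to lysosomes. Scarb2 gave 1040.2, 845 and 776 in TLR4 null ischemic kidneys, against 1023, 1040.2 and 1091 in TLR4 null sham kidneys. In WT mice, Scarb2 gave 873, 857 and 974.8 in ischemic kidneys, against 1112, 1157 and 1103 in sham kidneys. A single TLR4 null ischemic kidney lay within the sham range. Scarb2 fell by 0.28 ± 0.072 on the log2 scale over both genotypes (adjusted p = 0.0067) and by 0.32 ± 0.10 in WT mice (adjusted p = 0.041), and its second probe set was flat at -0.0098 (adjusted p = 0.958). Lamp1 and Lamp2, the most abundant lysosomal membrane proteins, differed by -0.05 and -0.08. A second Lamp2 probe set fell by 0.23 ± 0.073 on the log2 scale (adjusted p = 0.0267).

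Of the V-ATPase subunits, which build the proton pump that acidifies lysosomes, Atp6v1a fell. Atp6v1a gave 4113, 4007 and 4448 in TLR4 null ischemic kidneys, against 5100.4, 5720.2 and 4974 in TLR4 null sham kidneys. In WT mice, Atp6v1a gave 4217, 4513 and 3543 in ischemic kidneys, against 4977, 4774 and 5092 in sham kidneys. Every ischemic kidney lay below every sham kidney. This catalytic subunit fell by 0.30 ± 0.065 on the log2 scale over both genotypes (adjusted p = 0.00204), by 0.33 ± 0.092 in TLR4 null mice (adjusted p = 0.0189) and by 0.28 ± 0.092 in WT mice (adjusted p = 0.0443). Its second probe set also fell by 0.30 (adjusted p = 0.00547). Atp6v0d1 differed by -0.0048 and Atp6v1h by -0.04. The same pump sits in the plasma membrane of intercalated cells of the collecting duct. Of 9 measured intercalated cell markers 6 fell over both genotypes, beside 19.4% of all genes. Among those that fell, Atp6v0d2, Atp6v1b1 and Atp6v0a4 encode subunits of the pump itself, so they are no separate measure of these cells. The others that fell were Foxi1, Hmx2 and Aqp6, and Slc4a1, Slc26a4 and Slc4a9 did not pass. The summed signals of all 9 markers were 3651 to 4162 in TLR4 null ischemic kidneys, against 4637 to 4809 in TLR4 null sham kidneys. In WT mice these sums were 3350.1 to 4057 in ischemic kidneys, against 4574 to 4757 in sham kidneys. The part of intercalated cells in the fall of Atp6v1a was not tested.

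The calls of the small changes depended on how the arrays were scaled. With each array scaled to a common median, 8 of the 38 genes were called over both genotypes, 7 higher and 1 lower (Wipi1), and 1872 of all genes were called higher and 1538 lower, beside 1957 higher and 2779 lower with the deposited scaling. In TLR4 null mice 2 of the 38 were then called higher and 1 lower, with 1094 of all genes higher and 920.0 lower, beside 1412 and 1676. In WT mice 5 were called higher and 0 lower, with 1239 of all genes higher and 547 lower, beside 1314 and 1501. The other 8 falls kept their direction and did not pass, with Atp6v1a closest at -0.25 (adjusted p = 0.0792). The rises of Ctsb and Ctsl did not pass either. Of the 18 calls, 13 held without each of the 12 arrays in turn, and 7 held in these and in all 12 other alternatives tried: Sqstm1, Gla, Npc1, Tfe3, Atg12, Ctsd and Wipi1.

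Most of the 38 genes had several probe sets. Of their 85 probe sets past the filter on low signals, 14 rose and 18 fell over both genotypes. Of all 30304 probe sets past the filter, 8277 were called, counting either direction. Probe sets of the same gene are not independent. Beyond the second values given above, a dimmer probe set did not pass for 3 of the called genes, Atg12 (0.33 ± 0.20, adjusted p = 0.254), Ctsa (-0.35 ± 0.16, adjusted p = 0.123) and Ctsl (0.02 ± 0.12, adjusted p = 0.931). Among genes not called, Atg5, Atg7, Atp6v1h, Ctsz, Gaa, Npc2, Psap and Ulk1 each had another probe set of the opposite sign, and none of those passed. For 11 genes a single probe set passed the filter, so no such comparison exists.

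**Figure D3:**
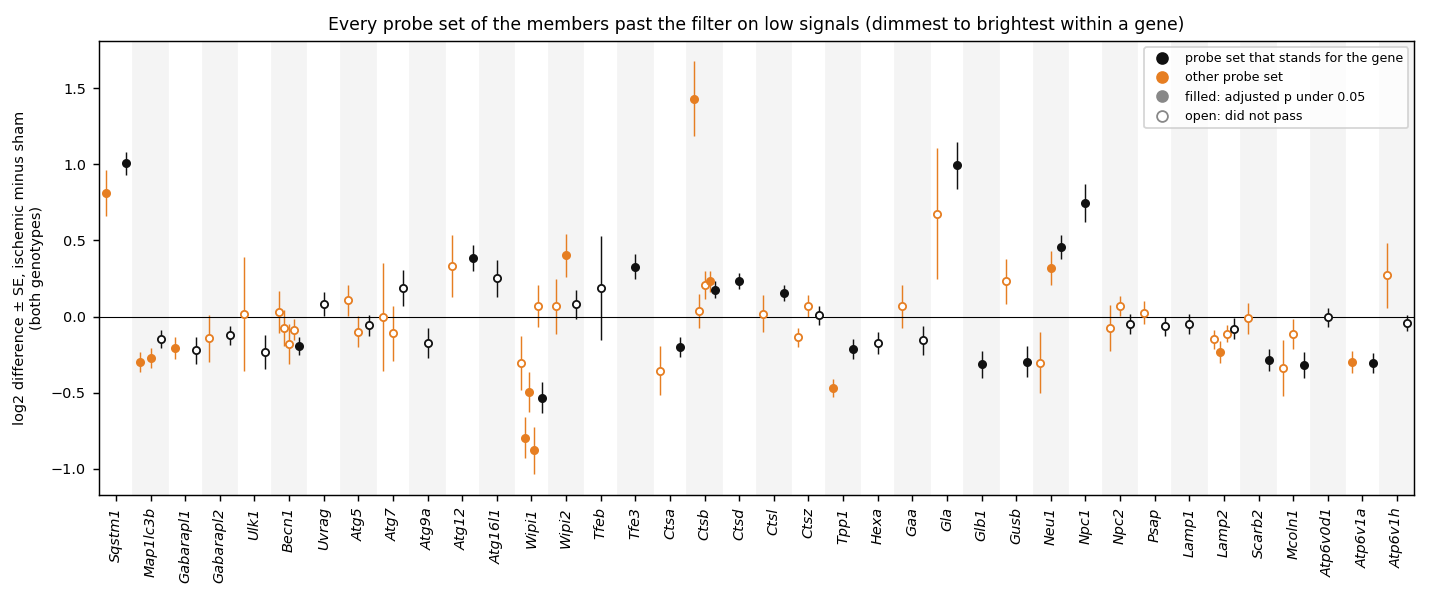
Log2 difference of ischemic minus sham kidneys over both genotypes for every probe set past the filter of the 38 genes. Black points stand for the gene and orange points are its other probe sets. Wipi1, Ctsb, Neu1 and Gusb have probe sets that spread widely or lie on both sides of 0.

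The wider pathway was described with 10 further lists, of which 188 of 205 genes were measured. Over both genotypes 23 of the 188 rose and 73 fell, with a median log2 difference of -0.16, beside 13.7% of all genes higher and 19.4% lower. With median scaling of the arrays, an alternative added after the data were seen, 19 rose and 31 fell, with a median of -0.10. Of all 14316 genes, 1872 were then called higher and 1538 lower. The hydrolases then held 7 falls, the sorting genes 0, the other V-ATPase subunits 2 and the list of TFEB relatives and their control 7. Of the 40 genes named from the lists 31 kept their call and none turned direction. Among markers, 3 of 9 for intercalated cells, 3 of 12 for the proximal tubule and 2 of 11 for macrophages then fell. The 9 named genes that lost their call were Cln3, Vps29, Gnptab, Ap3b1, Vps35, Atp6v0e, Atp6v1d, Atg10 and Atg3. Other lysosomal hydrolases fell in 18 of 35 genes and rose in 3, with a median of -0.26. Hyal2, a hyaluronidase, fell by 0.53 ± 0.081 on the log2 scale (adjusted p = 0.000122), Ctso by 0.44 ± 0.069 (adjusted p = 0.000151) and Ids, which removes sulfate from heparan and dermatan sulfate, by 0.41 ± 0.064 (adjusted p = 0.000164). Ctsc, the protease that activates granule proteases of leukocytes, rose by 0.72 ± 0.10 (adjusted p = 6.35e-05). Among other lysosomal membrane proteins 4 of 21 fell, namely the sialic acid exporter Slc17a5 (-0.50), the amino acid sensor Slc38a9 (-0.63), Mcoln3 (-0.41) and Cln3 (-0.25), and 1 rose. Genes that sort enzymes to lysosomes fell in 7 of 13 and rose in none, including Gnptab (-0.29 ± 0.074, adjusted p = 0.00706), whose enzyme makes the mannose 6-phosphate tag, Ap3b1 (-0.22), and Vps29 (-0.26) and Vps35 (-0.16) of the retromer. Of 18 other V-ATPase subunits 9 fell, among them Atp6v0a4 (-0.54), Atp6v0e (-0.22) and Atp6v1d (-0.26), and 1 rose, Atp6v1c1, by 0.58 ± 0.065 (adjusted p = 6.16e-06). Atp6v0a4 and 2 others of these subunits are also intercalated cell markers.

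Of 12 proximal tubule markers 5 fell, none rose and 7 did not pass. The counts of these and the next markers stand beside 13.7% of all genes called higher and 19.4% lower. The markers that fell included the endocytic receptors Lrp2 (-0.43 ± 0.069, adjusted p = 0.000218) and Cubn (-0.40 ± 0.077, adjusted p = 0.000874) and the transporter Slc5a12 (-0.63 ± 0.062, adjusted p = 1.75e-06). The summed marker signal was 89545 to 101650.0 in TLR4 null ischemic kidneys, against 101910.0 to 110060.0 in TLR4 null sham kidneys, and 85487 to 103970.0 in WT ischemic kidneys, against 88713 to 97901 in WT sham kidneys. Of 11 measured macrophage markers 4 fell and 1 rose. Cd68, itself a lysosomal membrane protein, rose by 0.98 ± 0.14 (adjusted p = 4.64e-05), and C1qa fell by 0.44 ± 0.090 on the log2 scale (adjusted p = 0.00132). Macrophage marker sums were 2386 to 2649 in TLR4 null ischemic kidneys, against 2669 to 2881 in TLR4 null sham kidneys, and 2828 to 2976 in WT ischemic kidneys, against 3209.9 to 3408 in WT sham kidneys. Of 5 measured neutrophil markers, S100a8 (1.21 ± 0.15) and S100a9 (1.30 ± 0.15) rose. The granule genes Mpo (-0.22) and Elane (-0.34) were dim, at mean signals of 70.6 and 35.2, and did not pass. Csf3r (-0.15), at a mean signal of 74.45, did not pass either, and the median of the list was -0.15. The part of these cell types in the changes of the lysosomal genes was not tested.

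The autophagy lists held calls in both directions, and their counts stand beside 13.7% of all genes called higher and 19.4% lower. Among genes of initiation and nucleation 6 of 22 rose and 6 fell. Vmp1 and Tmem41b, whose products move lipids at the endoplasmic reticulum where autophagosomes form, rose by 0.89 ± 0.065 (adjusted p = 7.72e-08) and 0.92 ± 0.10 (adjusted p = 4.67e-06), and Wdr45b rose by 0.39 and Sh3glb1 by 0.34. Of 9 genes of ATG8 conjugation Atg4a (-0.42), Atg4c (-0.44) and Atg10 (-0.37) fell, and Atg3 rose (0.21 ± 0.074, adjusted p = 0.044). Selective receptors other than Sqstm1 fell in 6 of 12 genes and rose in 1. They included the ferritin receptor Ncoa4 (-0.59 ± 0.062, adjusted p = 3.26e-06), the endoplasmic reticulum receptor Ccpg1 (-0.62 ± 0.069, adjusted p = 5.97e-06), the mitochondrial receptor Bnip3 (-0.42 ± 0.052, adjusted p = 1.67e-05) and Calcoco1 (-0.65 ± 0.087, adjusted p = 3.95e-05). Of 12 fusion genes Plekhm1 (0.44) and Vps18 (0.52) rose and 3 fell, among them the SNARE gene Vamp8 (-0.32) and Vps41 (-0.34).

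In the list of TFEB relatives and their control, 17 of 37 genes fell and 3 rose, with a median of -0.19. Of all genes 19.4% fell and 13.7% rose in the same comparison. Mtor, the kinase that holds TFEB and TFE3 in the cytoplasm and restrains ULK1, fell by 0.81 ± 0.061 on the log2 scale (adjusted p = 1.08e-07). Mtor averaged 1273 ± 104 in TLR4 null ischemic kidneys and 2076 ± 78.8 in TLR4 null sham kidneys (SD, n = 3 each), with adjusted p = 3.78e-05 in limma. In WT mice, Mtor averaged 1058 ± 86.9 in ischemic kidneys and 1996 ± 68.4 in sham kidneys (SD, n = 3 each), with limma's adjusted p = 3.08e-06. Sesn1 (-1.13), a brake on mTORC1, Foxo3 (-0.79), a transcription factor of autophagy genes, and Deptor (-0.45), an mTOR inhibitor, fell as well. The damage response list went the other way over both genotypes, with 5 of 9 genes higher and none lower. Lgals3, whose product galectin-3 binds sugars exposed on broken lysosomes and is also made by macrophages and injured tubules, rose by 2.41 ± 0.094 (adjusted p = 1.33e-10). Chmp4b (0.30) and Pdcd6ip (0.33), of the ESCRT machinery that seals membranes, and Lgals1 (0.26) rose too. Within genotypes, 4 of the 9 genes were called higher in WT mice, beside 9.18% of all genes. In TLR4 null mice 1 was called higher, Lgals3, beside 9.86% of all genes. The TLR4 null differences of Chmp4b (0.16), Pdcd6ip (0.21) and Lgals1 (0.10) did not pass, and no interaction passed. Between genotypes over both surgeries, 2 of the 9 were called lower in TLR4 null kidneys, beside 2.1% of all genes in either direction. In ischemic kidneys alone 1 of the 9 was called lower in TLR4 null mice, beside 0.657% of all genes in either direction.

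**Figure D4:**
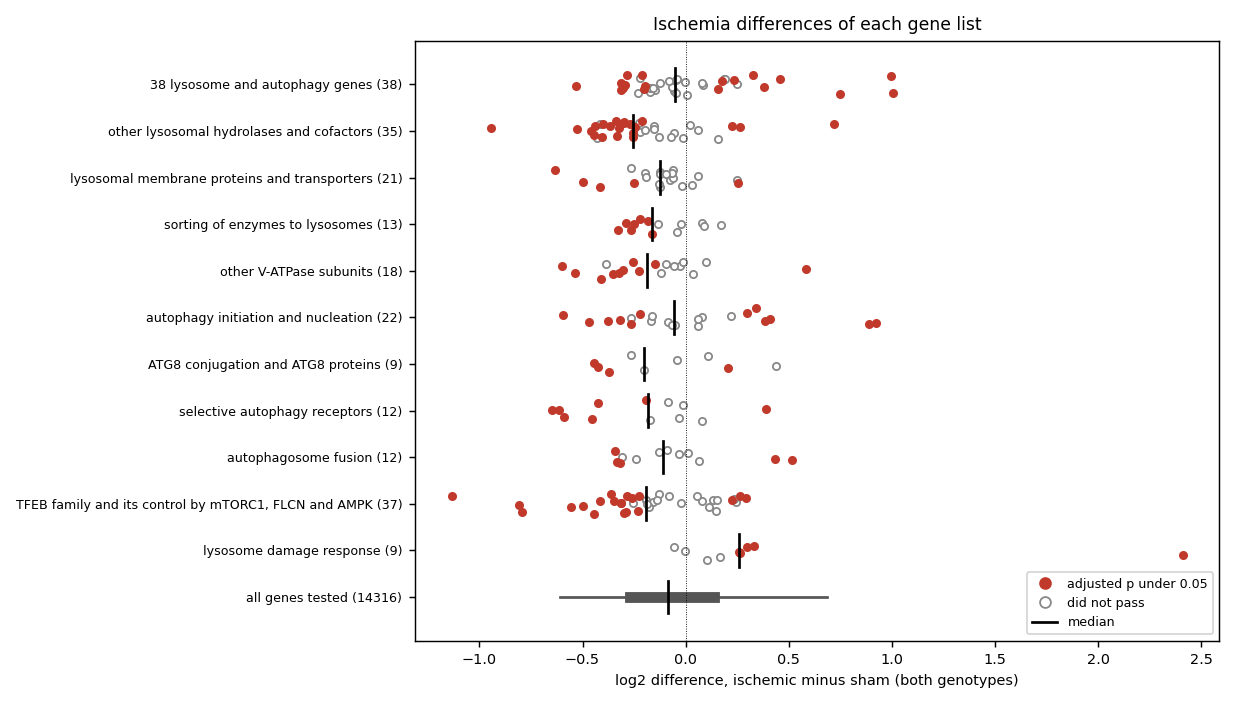
Log2 difference of ischemic minus sham kidneys over both genotypes for the 38 genes, the 10 further lists and all genes, 1 point per gene. For all genes the thin bar spans the 5th to the 95th percentile (-0.61 to 0.68) and the thick bar the middle of the distribution (-0.27 to 0.14), around a median of -0.084. The damage response list lies mostly to the right of 0 and the hydrolase list mostly to the left.

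The comparison of genotypes asks whether these genes or their response differ between TLR4 null and WT mice. The loss of Tlr4 and other differences between the substrains cannot be told apart in it. No interaction passed, in the 38 genes or in all 14316 (0% of all genes), with 2 of the 38 and 910 of all genes at an unadjusted p under 0.05 in limma. The smallest p among the 38 was that of Gla, whose TLR4 null response minus WT response was -0.86 ± 0.31 (adjusted p = 0.672), followed by Becn1 at -0.30 ± 0.12 (adjusted p = 0.701). Thus Gla, called in WT mice alone, and Becn1, called in TLR4 null mice alone, were not shown to respond differently. For Sqstm1 the interaction was 0.26 ± 0.15 (adjusted p = 0.834).

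None of the 38 genes passed the test between the genotypes in limma either. In sham kidneys 4 of the 38 reached an unadjusted p under 0.05 and 0 passed, beside 0.314% of all genes called. In ischemic kidneys these counts were 3 and 0, beside 0.657%, and over both surgeries 6 and 0, beside 2.1%. Ctsz, for the carboxypeptidase cathepsin Z, came nearest. Its signals were 2461, 2585 and 2772 in TLR4 null ischemic kidneys, against 2501, 2214 and 2087 in WT ischemic kidneys. Ctsz gave 2431, 2867 and 2637 in TLR4 null sham kidneys, against 2193, 2153 and 2265 in WT sham kidneys. The sham groups stood apart and the ischemic groups overlapped through WT ischemic replicate 1. The difference over both surgeries was 0.23 ± 0.062, with a 95% interval of 0.098 to 0.36 (adjusted p = 0.0767), and without WT ischemic replicate 1 it was 0.27 ± 0.062 (adjusted p = 0.0487). Over both surgeries Gusb differed by 0.32 (adjusted p = 0.151), Psap by 0.18 (adjusted p = 0.176), Neu1 by 0.22 (adjusted p = 0.202), Npc2 by -0.19 (adjusted p = 0.173) and Atg7 by -0.31 (adjusted p = 0.247). The 4 fat markers differed by a median of -0.98 over both surgeries without passing, with summed signals of 240.7 to 2389.5 in TLR4 null ischemic kidneys, against 515 to 3494 in WT ischemic kidneys. Of 5 neutrophil markers 2 passed over both surgeries, S100a8 at -0.79 ± 0.15 (adjusted p = 0.0119) and S100a9 at -0.71 ± 0.15 (adjusted p = 0.0264). The rest of that list, Mpo (0.007), Elane (0.19) and Csf3r (0.14), did not pass, and the list's median was 0.007. C1qa passed at -0.42 ± 0.090 (adjusted p = 0.0238), as 1 of 11 macrophage markers. The transporter Slc13a3 passed at 0.43 ± 0.094 (adjusted p = 0.0294), as 1 of 12 proximal tubule markers. All 11 measured macrophage markers had a negative difference, with a median of -0.32. The part of these markers in the differences of the 38 genes was not tested.

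**Figure D5:**
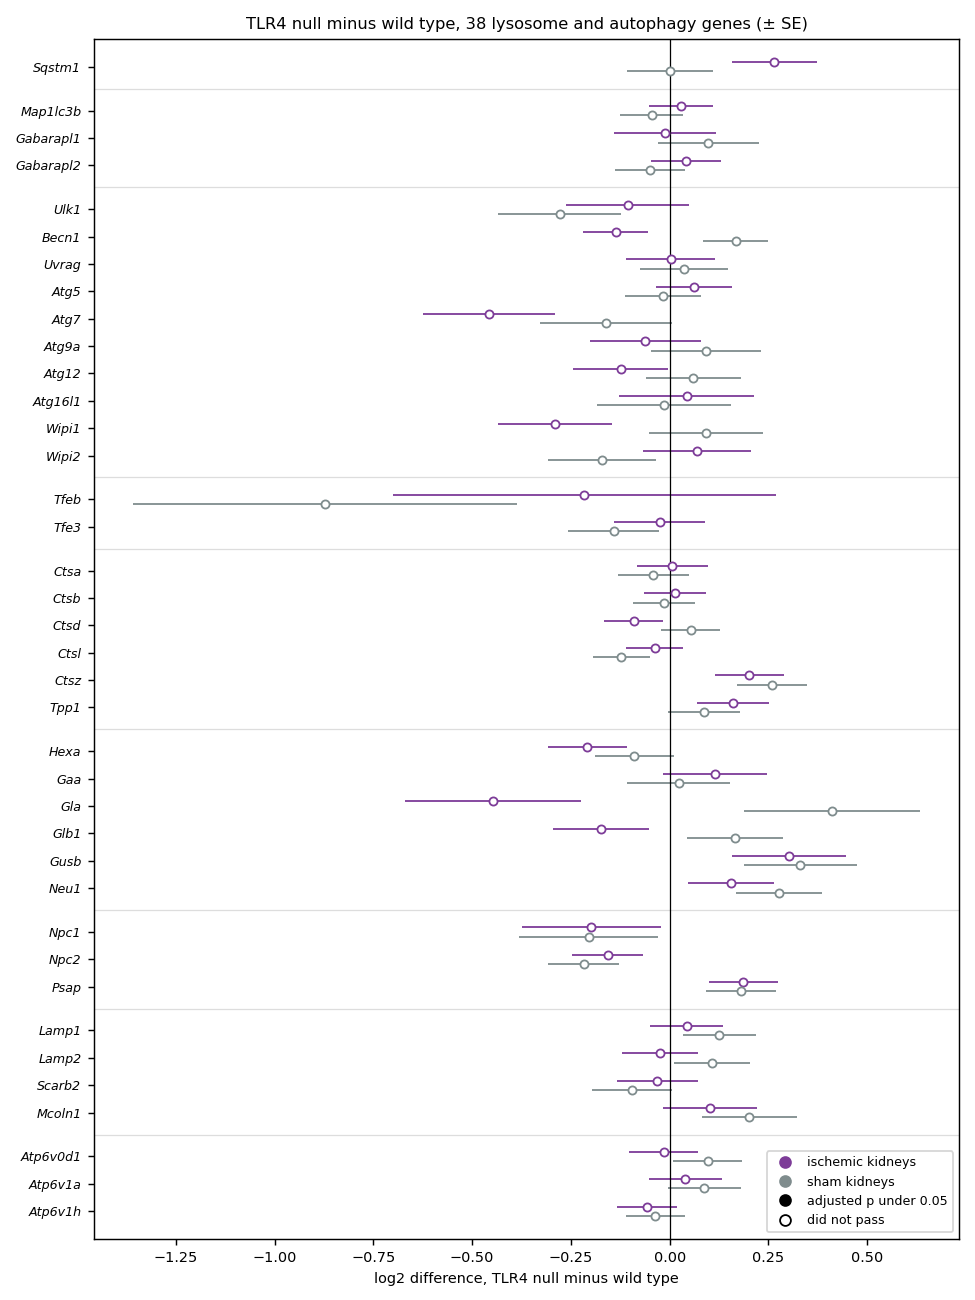
Log2 difference of TLR4 null minus WT kidneys for the 38 genes, in ischemic kidneys (purple, upper point of each pair) and sham kidneys (grey, lower point), with standard errors. No point is filled, since none passed an adjusted p of 0.05, and the bars of Tfeb and Gla are the widest.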

How the data were processed

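The values of the 12 arrays, as deposited, are linear signal intensities. Per the submitters' processing notes the authors used MAS5, whose version and scaling target the sources used here do not state. In the file, every array has the same trimmed mean over the middle 96% of its probe sets, which was kept as the scaling. The table holds 45101 probe sets, 64 of them controls. The platform annotation gave 1 gene to 34945 probe sets and several to 932. Probe sets above the 40th percentile of an array on at least 3 of 12 arrays were kept (30304), and the brightest kept one on the log2 scale stood for a gene. The pseudocount, 15, was rounded from the 20th percentile of the signals.

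The test was limma 3.58.1 under R 4.3.3, with lmFit and a trended eBayes, in 1 model with a mean per group and 8 residual degrees of freedom, two-sided, for 7 comparisons. The steps were tested on simulated data. Figures and the promoter search used Python 3.11.15. Every gene called gets its value on each array, and up to 4 genes of each further list are named, those with the smallest p over both genotypes. The 38 genes and the lists were chosen with earlier results of these data known, so no test over a list was made. Replicate numbers did not pair the arrays. Alternatives were other scalings, pseudocounts, filters, probe set rules, variance settings, a fat score as covariate, a replicate block and leaving out each array. Some listed genes are not analysed here.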

Additional observations from a re-analysis of the deposited data

How the results depend on the processing

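No value of the 18 called genes reversed under any alternative, and the genotype and interaction counts stayed at 0 in all settings with 1 exception. With median scaling of the arrays the calls were 3 in TLR4 null, 5 in WT and 8 over both genotypes, and all 8 were among the 18. Leaving out 1 array at a time gave 5 to 9 calls in TLR4 null, 6 to 9 in WT, 14 to 19 over both genotypes and 0 to 1 between genotypes over both surgeries, the 1 being Ctsz without WT ischemic replicate 1. The lowest TLR4 null count, 5, came without TLR4 null sham replicate 2. The median difference of the 38 genes over both genotypes was -0.074 to -0.029 with 1 array left out, and -0.001 with median scaling. Quantile normalization gave 20 calls over both genotypes, averaging the probe sets of a gene 15 and eBayes without a trend 13. Arrays with the same replicate number in different groups did not deviate together (correlations of -0.062 to 0.10 over 18 pairs), and with a replicate block 18 genes were called over both genotypes, 9 in TLR4 null and 7 in WT. The number of arrays limits the precision, and the causes of these shifts were not tested.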
